A study of Delphinium anthriscifolium with 89 samples.

Results

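In flower buds of Delphinium anthriscifolium, 73 of 32115 assembled transcript features had similar peak levels in both petal types, with the higher of these at least 3-fold above every other organ sampled. They were chosen by level in the 85 wild-type libraries. Counts were turned into CPM (a count divided by its library total and scaled to a fixed total that is the same for all libraries), and each group was given the median CPM of its replicates plus 1. An organ's value was that of its highest stage. A feature was kept when the dorsal and lateral petal values lay within 3-fold of each other, the lower was at least 6, and the higher was at least 3-fold above each of the 7 non-petal organs. Levels in other organs were not bounded otherwise, and the lower petal value was itself 3-fold above them in 26 members and under 1.5-fold above the nearest organ in 9. These values are a description of how the list was made, and the contrast of petals with other organs is given without a test.

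Larkspur flowers are mirror-symmetric, with a dorsal spurred sepal, lateral and ventral sepals without spurs, dorsal petals that form a spur of their own, and lateral petals without one. The petals stand between the sepals and the stamens, and in flowering plants petals and stamens share B-class MADS-box regulators, the transcription factors that set organ identity. Larkspur petals take on colour, final size and shape late in bud growth, and the dorsal petals carry nectar in their spurs.

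The RNA-seq libraries of wild-type plants covered leaves and bracts (4 libraries each), 3 sepal types, 2 petal types, stamens and carpels. Each floral organ was taken at the floral stages S9 (2 libraries) and S10, S12 and S16 (3 libraries each), in that developmental order. A further 4 libraries came from plants treated by virus-induced gene silencing, 2 titled ans and 2 titled ans-lmi1. The count columns of the ans libraries are headed MOCK, and the design text speaks of mock and ans-lmi1 plants, so whether the ans libraries are silenced or mock-treated is not settled by these labels. Their tissue label reads lateral non-spurred sepals, while the design text speaks of petals at S12, and the genotype label of ans-lmi1 names an LMI1 knockdown in replicate 1 and an LMI2 knockdown in replicate 2. Wild-type samples carry no other allele or treatment in the labels. Whether replicates came from separate plants is not stated, so the p-values measure the spread between libraries, which may be technical. The sources used here pair no feature with a gene name, so the level of the silenced gene was not analysed here and features are given by their assembly identifiers, without a function.

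Library totals ran from 4201867 to 22100119 estimated counts (median 8555603), and 9879 to 23305 features had a count. Fewer than 19000 features had a count in 21 of the 89 libraries. Among petals these were dorsal S9 replicate 2, dorsal S16 replicate 3, lateral S10 replicate 1 and lateral S16 replicate 3. In bulk tissue, fewer cells of a type and less RNA per cell cannot be told apart.

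Most of the selection fell on the last condition. The lower petal value reached 6 in 16037 features, 15655 of these also had petal values within 3-fold, and 73 of those were 3-fold above all other organs, so the limit of 200 was not reached. A further 53 features met the level and the ratio but differed by more than 3-fold between the petal types, and 11 met the other conditions with a lower petal value under 6. At the ratio threshold, DN38390_c0_g4_i2 lay inside at 3.01 and DN43317_c0_g1_i2 outside at 2.96. At the 3-fold bound between petals, DN45604_c1_g1_i2 lay inside at 2.95 and DN43345_c0_g1_i1 outside at 3.03. At the floor, DN46846_c0_g1_i2 lay inside at 6.38 and DN30263_c0_g1_i1 outside at 5.88.

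The ratio of the higher petal value to the highest other organ had a median of 4.11 over the 73 members and ran from 3.01 to 91.8. It was at least 5 in 22 members, at least 10 in 10 and at least 20 in 3. The higher petal value was at least 100 in 41 members and at least 1000 in 6. Median organ values (CPM + 1) over the members were 97.3 in dorsal and 96.5 in lateral petals, 14.8, 12.4 and 11.4 in dorsal, lateral and ventral sepals, 16.9 in stamens, 6.06 in carpels, 3.47 in bracts and 2.19 in leaves. The organ nearest to the petals was a sepal type for 36 members, the stamens for 25, the carpels for 10, and the leaf and the bract for 1 each.

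**Figure D1:**
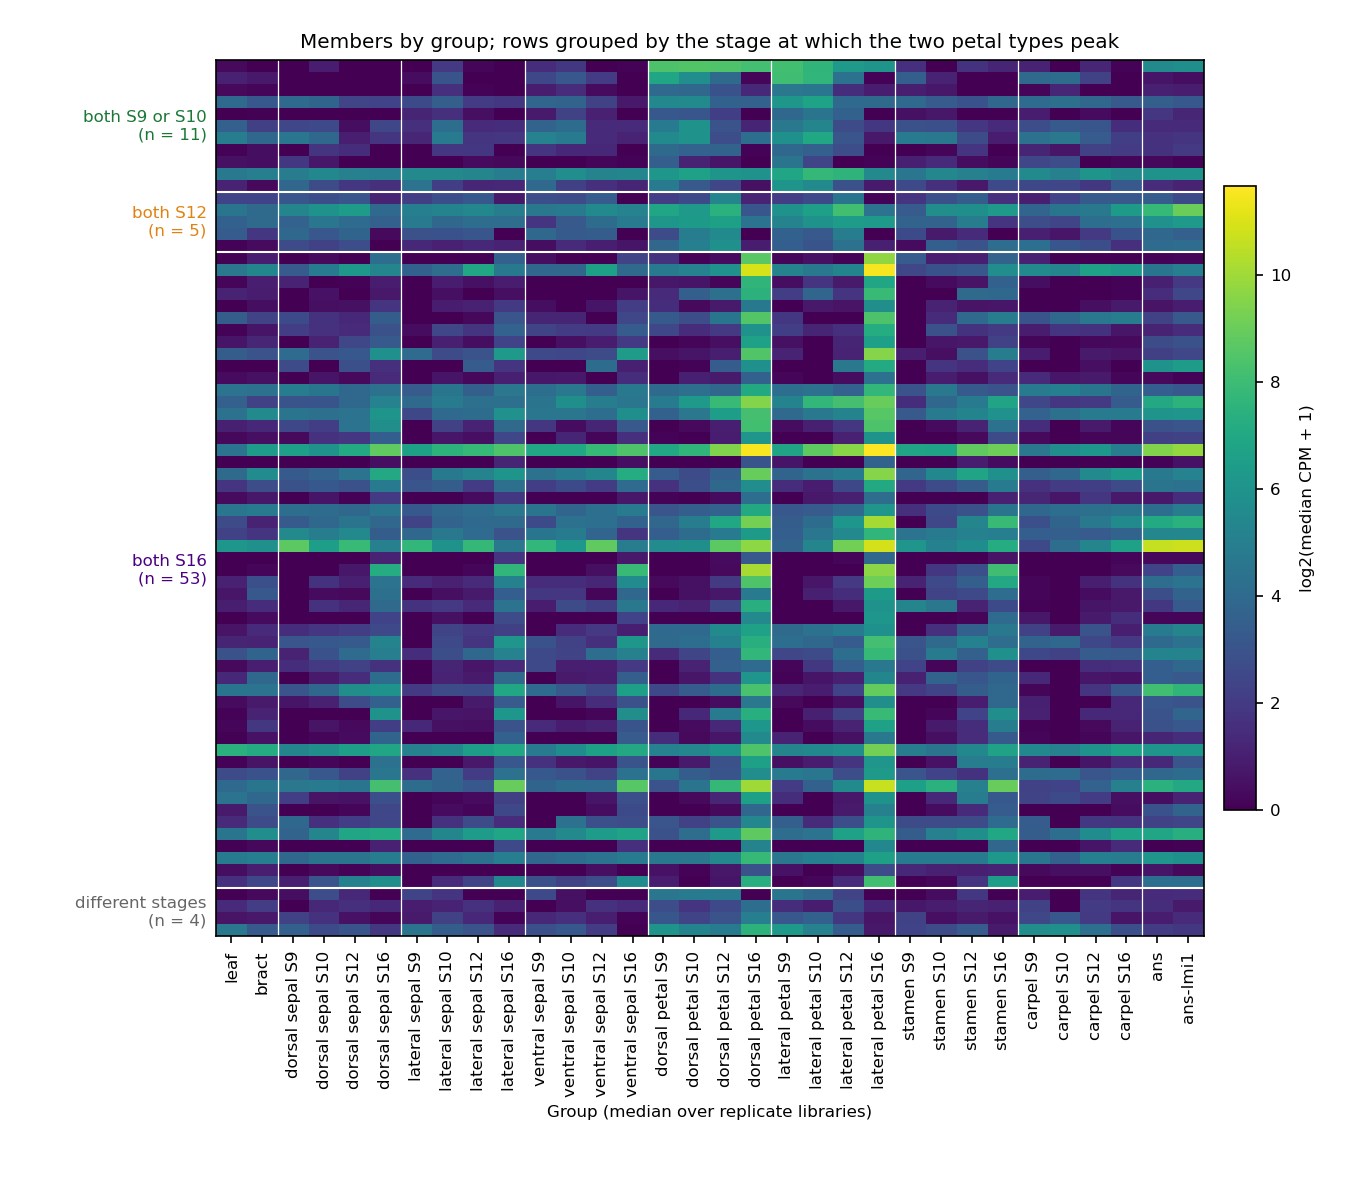
Level of each of the 73 members (rows) in each group (columns), as log2 of the median CPM plus 1 over the replicate libraries; rows are grouped by the stage at which the petal types peak, and white lines part the organs. The brightest cells stand in the dorsal and lateral petal columns at S16, where 53 members had both their peaks.

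The largest ratio belonged to DN36726_c0_g1_i1, at 91.8. Its dorsal petal libraries read 356 and 308 CPM at S9, 358, 349 and 353 at S10, 345, 361 and 307 at S12, and 286, 250 and 344 at S16. Lateral petals read 273 and 290 CPM at S9, 166, 231 and 197 at S10, 66.4, 82 and 77.7 at S12, and 59.7, 64.2 and 103 at S16. The dorsal libraries stayed within a narrow band over all stages, while at each stage every lateral library was lower than every dorsal library. The highest single non-petal library was ventral sepal S16 replicate 3, at 10.2 CPM, a library in which only 9927 features had a count.

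The second largest ratio, 45.2, was that of DN44361_c0_g1_i4, a feature seen almost only at S16. Dorsal petals at S16 read 246, 409 and 495 CPM and lateral petals 833, 953 and 764, against at most 4.29 CPM in any petal library of S9, S10 or S12. Dorsal sepals, the next organ by the group median, read 17.4, 14.3 and 62.7 CPM at S16. The highest single non-petal library was again ventral sepal S16 replicate 3, at 155 CPM, while replicates 1 and 2 read 4.18 and 3.32. That library of few features stood far from the others of its group. The petal groups at S16 did not overlap with the sepals. Its assembly gene also holds i2 and i3, which were not members and were highest in sepals, with values of 629 in lateral sepals for i2 and 538 in dorsal sepals for i3. The petal values of those transcripts were 32.3 and 55.8 for i2 and 108 and 101 for i3 (dorsal and lateral, CPM + 1).

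The most abundant members were DN48047_c0_g1_i1 and DN45919_c1_g4_i1. DN48047_c0_g1_i1 read 2948, 2720 and 3415 CPM in dorsal petals at S16 and 3763, 3136 and 3215 in lateral petals, with the stamens next at 660, 547 and 479 CPM. DN45919_c1_g4_i1 read 1958, 2795 and 1306 CPM in dorsal petals at S16 and 2915, 3673 and 886 in lateral petals. The low lateral value came from replicate 3, one of the libraries with few features. In other organs DN45919_c1_g4_i1 was nearest in lateral sepals at S12, at 124, 113 and 125 CPM, and the leaf libraries read 16.9, 24, 23 and 201 CPM. At S16 the dorsal and lateral libraries of each of these members overlapped.

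The members came from 72 assembly genes in 68 assembly clusters, 5 of which held 2 members each, so members of such a cluster may share reads. One pair belonged to a single assembly gene, DN38206_c0_g1. Its transcript i1 read 809, 826 and 1331 CPM in dorsal petals at S16 and 1925, 1722 and 2136 in lateral petals. Transcript i3 read 55.8, 20.4 and 155 CPM in dorsal petals at S16 and 139, 119 and 343 in lateral petals. For i1 the ventral sepals were next, at 441, 205 and 464 CPM at S12. How estimated counts were divided between i1 and i3 is uncertain. Other features shared an assembly gene with 18 of the 73 members (24.7%, against 29.3% of all features). When counts were first summed over assembly genes, an alternative chosen after the data had been seen, 66 assembly genes passed the same conditions, and all were genes of members, holding 67 of the 73.

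The members split by the stage at which they peaked. Both petal types peaked at S16 in 53 members (72.6%), against 2972 of the 15582 features (19.1%) that met the level conditions without being members. Another 5 peaked in both types at S12, and 11 peaked in both at S9 or S10. The remaining 4 peaked at different stages. Among the 53 late members the nearest organ was a sepal type for 27 and the stamens for 23, and for 40 of them the nearest group was itself at S16. For the 11 early members it was a sepal type for 6 and the carpels for 5. The median ratio was 4.24 for the late members, 3.45 for the early ones and 3.22 for those of S12.

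Among the early members, DN36837_c0_g1_i1 was the highest that peaked at S9 in both types. It read 143 and 93 CPM in dorsal petals at S9, 52.8, 50.6 and 45.2 at S10, 4.95, 20 and 15.3 at S12, and 0.106, 0.271 and 0 at S16. Lateral petals read 233 and 312 CPM at S9, 344, 190 and 200 at S10, 4.71, 26.3 and 20 at S12, and 0.661, 0.0872 and 0 at S16. Its level was high at the first stages and near 0 at S16 in both types, and the lateral libraries were above the dorsal ones at S9 and S10. Carpels at S10 came next, at 27.8, 11 and 16.4 CPM.

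DN41330_c0_g1_i1 was the highest member with a joint peak at S10, at 101, 92.4 and 105 CPM in dorsal and 217, 183 and 226 in lateral petals, and its ratio was 3.37. DN47654_c0_g1_i2 was the highest with a joint peak at S12, at 175, 408 and 168 CPM in dorsal and 186, 417 and 279 in lateral petals. In DN47654_c0_g1_i2 the replicates of 1 group spread as widely as the petal types, and dorsal sepals at S12 reached 37, 113 and 84.2 CPM. Its assembly gene also holds i1, which was more abundant and not a member, with a ratio of 1.51. The organ values of i1 were 930 in dorsal and 889 in lateral petals, against 617 in ventral sepals (CPM + 1). How estimated counts were divided between these transcripts is uncertain.

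Summed over the 73 members, dorsal petals held 1451 and 1500 CPM at S9, 1658, 1843 and 1779 at S10, 4022, 3398 and 3294 at S12, and 16267, 17263 and 19566 at S16. Lateral petals held 1495 and 1772 CPM at S9, 2285, 2258 and 2253 at S10, 3939, 3039 and 3025 at S12, and 20645, 22409 and 18580 at S16. In both types every S16 library lay above every S12 library, and every S12 library above every S10 library. The mean sum at S16 was 4.96-fold that at S12 in dorsal and 6.16-fold in lateral petals. The 5 most abundant members made up 47.6% to 54.2% of the sum at S16, and without them the folds were 4.28 and 6.22. From S10 to S12 the mean sum without them changed 1.43-fold in dorsal and 0.90-fold in lateral petals. The lateral rise of that step thus rested on these 5 members.

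In other organs the same sum also was higher at S16 than at S12, by 2.03-fold, 2.46-fold and 2.23-fold in dorsal, lateral and ventral sepals, 2.24-fold in stamens and 1.19-fold in carpels. The sum of the 11 early members was lower at S16 than at S9, which follows largely from grouping them by a peak at S9 or S10 in these libraries. It was 710 ± 119 CPM in dorsal petals at S9 (SD, n = 2), 709 ± 34.9 at S10, 473 ± 49.8 at S12 and 393 ± 59.1 at S16 (n = 3 each). In lateral petals it was 957 ± 91.2 CPM at S9 (n = 2), 1059 ± 154 at S10, 311 ± 77.7 at S12 and 145 ± 32.6 at S16 (n = 3 each). Of the dorsal sum at S16, DN36726_c0_g1_i1 made up 293 ± 47.2 CPM (n = 3).

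**Figure D2:**
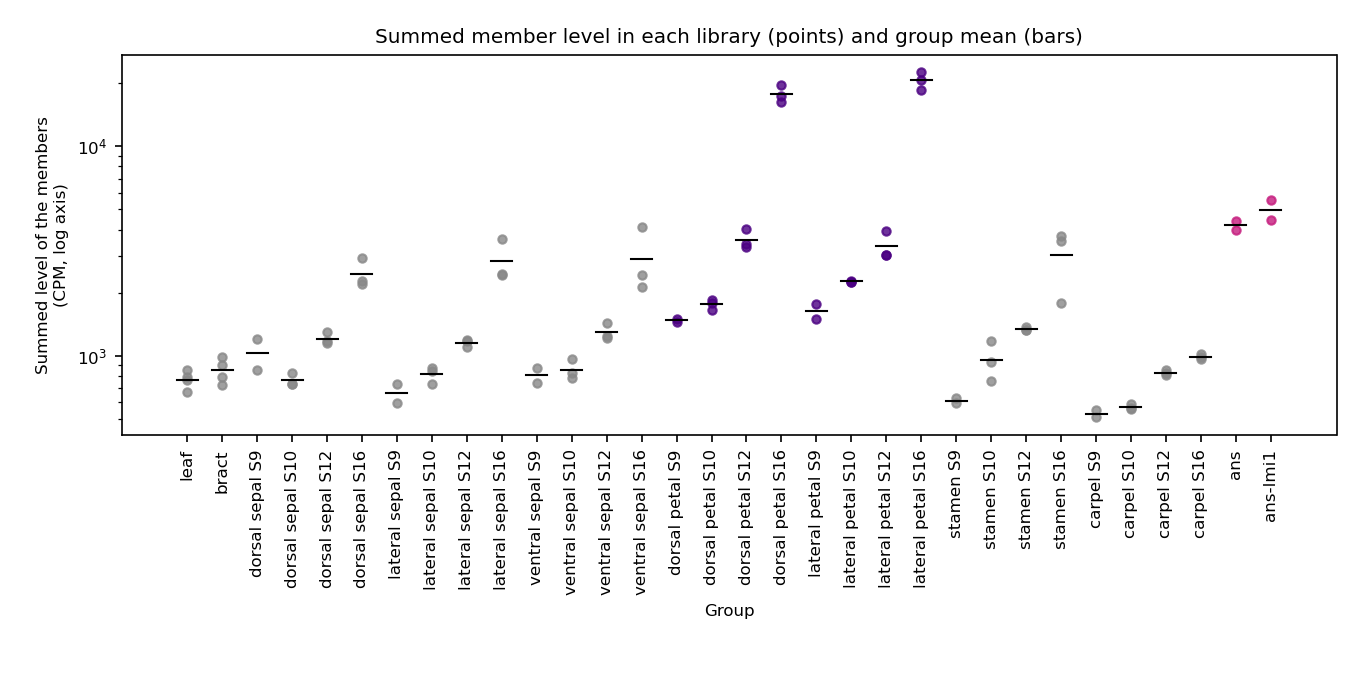
Summed level of the 73 members in each library (points, CPM on a log axis) with the mean of each group (bars). The 3 dorsal and 3 lateral petal libraries of S16 sit between 16267 and 22409 CPM, above all other groups, and the silencing libraries between 3995 and 5512 CPM.

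The first tested question was how far the members moved between successive stages within each petal type. The choice by the highest stage favours features that are high at 1 stage, so the counts are read beside those of all features and as a description. All 73 members were among the 21834 features tested in the 22 petal libraries with the edgeR quasi-likelihood F test on TMM-scaled counts, with Benjamini-Hochberg adjusted p under 0.05 as the call. The steps of 1 petal type share libraries, since S10 and S12 each enter 2 steps, and were not set against each other.

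From S12 to S16 most members rose in both types. In dorsal petals 53 members rose and 13 fell, against 16.5% and 17% of all features tested, and in lateral petals 51 rose and 11 fell, against 13.9% and 18.1%. The median log2 change over the members was 3.28 in dorsal and 4.28 in lateral petals, and over all features -0.02 and -0.19. With members that were at 0 in a group set to the bound given by 3 counts, the medians were the same, 3.28 and 4.28. Scaling by library totals in place of TMM moves the median of all features by -0.40 in dorsal and -0.36 in lateral petals, so log2 changes of this step lie higher than the CPM values alone would give. Without the 4 petal libraries of few features, 68 members were called in dorsal petals (47.5% of all features) and 65 in lateral petals (43.1%).

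Rises and falls of this step are named in the order of the fitted log2 change, which depends on the prior count where a group was at 0, so that order is not one of supported size. DN6373_c0_g1_i1 came first in both types. Dorsal petals read 0.209, 0 and 0.333 CPM at S12 and 1253, 854 and 1130 at S16, a log2 change of 12.93 ± 0.60 (SE, adjusted p = 1.93e-09, edgeR). Lateral petals had no count at S12 and read 801, 795 and 709 CPM at S16, at least 8307-fold higher, with the bound taken at 3 counts over the group (adjusted p = 2.32e-09, edgeR). Other organs held it at S16 as well, with stamens at 435, 266 and 118 CPM, ventral sepals at 572, 234 and 137, and lateral sepals at 415, 204 and 186.

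Next in dorsal petals by the fitted value was DN26198_c0_g1_i1, with no count in any S12 library and 43.2, 35.7 and 8.27 CPM at S16, at least 575-fold higher (adjusted p = 0.00136, edgeR). DN44361_c0_g1_i4, with counts in all S12 libraries of dorsal petals, rose there from 0.261, 0.0523 and 0.534 CPM to 246, 409 and 495, a log2 change of 10.80 ± 0.98 (adjusted p = 5.68e-08, edgeR), and was added here after its values were seen. DESeq2 gave DN26198_c0_g1_i1 an adjusted p of 0.0767, and its lateral libraries at S16 read 57.8, 42.6 and 0 CPM, the 0 again in replicate 3. Next in lateral petals was DN44664_c0_g7_i1, at 0, 0 and 0.0997 CPM at S12 and 336, 368 and 193 at S16. That is 1 count against 8891, or 10232-fold (exact interval at 95% from counting alone, 1836 to 404169; adjusted p = 2.04e-10, edgeR). No library of these S16 groups overlapped with S12 in DN44664_c0_g7_i1.

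The falls named ended at or near 0. DN32127_c0_g1_i1 read 25.6, 46 and 93 CPM in dorsal petals at S12 and 0 in all 3 libraries of S16, at least 910-fold lower (adjusted p = 3.13e-08, edgeR). In lateral petals it went from 30.1, 31.1 and 25 CPM to 0.0945, 0 and 0, a ratio of 802 (144 to 31714, adjusted p = 3.31e-07, edgeR). DN42785_c0_g1_i1 went from 21.7, 28.9 and 26.7 CPM in dorsal petals to 0 in each, at least 451-fold lower (adjusted p = 1.97e-08, edgeR). DN49334_c0_g1_i1 went from 8.36, 11.3 and 11.9 CPM in lateral petals to 0 in each, at least 97.3-fold lower (adjusted p = 1.69e-06, edgeR). These members had counts in all S12 libraries of the type named and in at most 1 library of S16.

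Dorsal and lateral steps share no library, but they are not fully independent. Both came from 1 fit, and libraries of the same replicate number deviated together between the types at S16 (r from 0.2 to 0.35). From S12 to S16, 50 of the 73 members rose in both types and 8 fell in both (68.5% and 11%, against 10.8% and 13% of all features tested). Another 2 moved in opposite directions, 8 were called in 1 type only and 5 in neither. Across the 73 members the log2 changes of the types had a Pearson r of 0.90, given as a description across features that are not independent and that were chosen for like levels in the types.

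**Figure D3:**
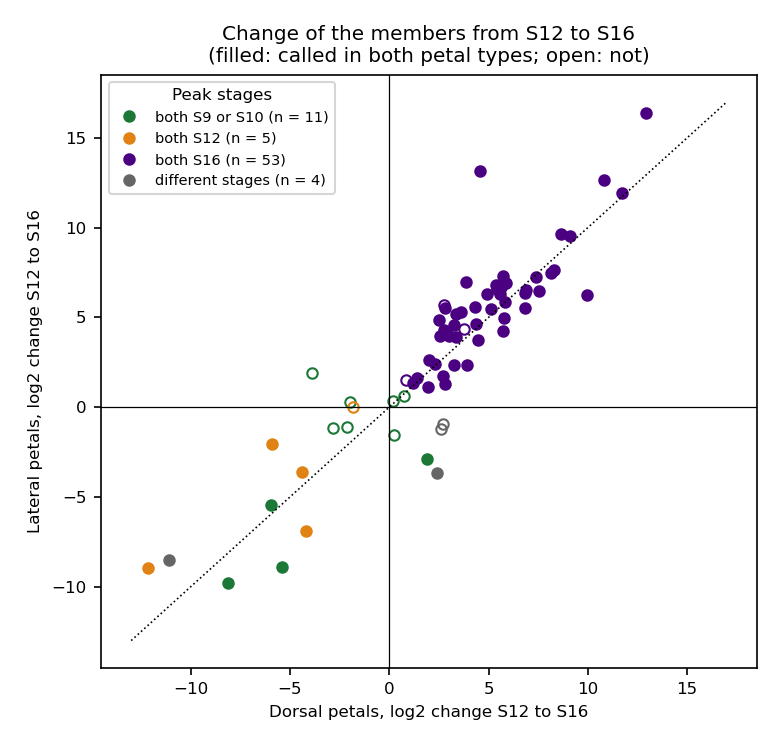
Log2 change from S12 to S16 in dorsal petals (x axis) and lateral petals (y axis) for each of the 73 members, coloured by peak stage, with filled points called in both types and the dotted line marking equal change. Most points lie in the upper right near the line, and the 2 filled points in the lower right rose in dorsal and fell in lateral petals.

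The opposite pair was DN41757_c1_g3_i1 and DN37326_c0_g1_i1. DN41757_c1_g3_i1 read 4.22, 8.53 and 5.74 CPM in dorsal petals at S12 and 17.6, 15.4 and 18.4 at S16, a log2 change of 1.88 ± 0.40 (SE, adjusted p = 0.000943, edgeR). In lateral petals it read 5.48, 11.1 and 7.28 CPM at S12 and 0.756, 1.31 and 0 at S16, a log2 change of -2.91 ± 0.49 (adjusted p = 9.32e-05, edgeR). The types overlapped at S12 and were apart at S16.

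DN37326_c0_g1_i1 read 85.3, 25.6 and 27.1 CPM in dorsal petals at S12 and 226, 143 and 185 at S16 (log2 change 2.41 ± 0.44, adjusted p = 0.000221, edgeR). Lateral petals read 10.6, 6.67 and 9.47 CPM at S12 and 0.661, 0.697 and 0 at S16 (log2 change -3.68 ± 0.59, adjusted p = 5.42e-05, edgeR). It met the 3-fold bound between petals because its lateral peak was at S9, at 78.1 and 72.8 CPM, while its dorsal peak was at S16.

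Fewer members were called from S10 to S12, with no test between the steps. In dorsal petals 15 members rose and 4 fell (4.23% and 4.36% of all features), and in lateral petals 11 rose and 13 fell (7.82% and 7.99%). Median log2 changes were 1.09 in dorsal and 0.58 in lateral petals, or 0.92 and 0.55 with members at 0 set to their bound, against 0.02 and 0.04 over all features. In both types 8 members rose and 4 fell (11% and 5.48%, against 3% and 3.63% of all features tested). The dorsal count of 19 was 12 without dorsal S10 replicate 3 and 12 without dorsal S12 replicate 1, where the shares over all features are not given here. It was 30 without the libraries of few features, a setting that called 25% of all features. None of those libraries is of dorsal petals at S10 or S12, so the libraries compared were the same.

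The DN38206_c0_g1 pair rose at this step. Transcript i1 read 29.9, 47.3 and 38.2 CPM in lateral petals at S10 and 1337, 423 and 576 at S12, a log2 change of 4.41 ± 0.52 (SE, adjusted p = 1.28e-05, edgeR). Transcript i3 had no count in lateral petals at S10 and read 98, 16.9 and 24.6 CPM at S12, at least 283-fold higher (adjusted p = 0.000319, edgeR). In dorsal petals i3 went from 0, 0.96 and 0.0654 CPM to 9.33, 4.84 and 15.6, a log2 change of 4.81 ± 1.05 (adjusted p = 0.00846, edgeR). The S10 and S12 libraries did not overlap in any of these. In lateral petals at S12 replicate 1 was the highest for both transcripts.

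DN47433_c1_g1_i2 was the other leading rise in dorsal petals, from 0, 0.664 and 0.458 CPM to 15.9, 2.82 and 3 (log2 change 4.23 ± 1.05, adjusted p = 0.0154, edgeR). That call was lost without dorsal S10 replicate 1 (adjusted p = 0.0731), S10 replicate 3 (0.0602) or S12 replicate 1 (0.157). The leading falls in dorsal petals were DN41757_c1_g3_i1, from 60.3, 64.5 and 54.8 CPM to 4.22, 8.53 and 5.74 (log2 change -3.29 ± 0.42, adjusted p = 6.04e-05, edgeR), and DN37869_c0_g1_i1, from 62.5, 68.4 and 34.5 to 5.01, 6.9 and 10.9 (-2.88 ± 0.57, adjusted p = 0.00279). In lateral petals DN41757_c1_g3_i1 fell from 181, 122 and 98.6 CPM to 5.48, 11.1 and 7.28 (-4.05 ± 0.43, adjusted p = 4.95e-06, edgeR). DN36940_c0_g2_i1 fell there from 6.63, 2.26 and 4.33 CPM to 0, 0 and 0.199, that is from 86 counts to 2, a ratio of 74 (19.9 to 620, adjusted p = 0.00334, edgeR).

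From S9 to S10 few members were called. In dorsal petals edgeR called none, against 0.0779% of features that rose and 0.0137% that fell, while 18 members had an unadjusted p under 0.05 (8.41% of all features) and DESeq2 called 2 (1.35%). In lateral petals 2 rose and none fell by edgeR, against 0.105% and 0.00458% of features, and with DESeq2 size factors 2 rose and 1 fell. An unadjusted p under 0.05 was found for 20 members there (8.04%), and DESeq2 called 6 (1.57%). The edgeR calls were DN42876_c0_g5_i1, from 19.3 and 52.8 CPM to 266, 212 and 122 (log2 change 2.42 ± 0.43, adjusted p = 0.0395, edgeR), and DN48047_c0_g1_i1, from 85.1 and 139 to 247, 434 and 435 (1.68 ± 0.32, adjusted p = 0.0463). Both calls were lost without lateral S9 replicate 1 (adjusted p = 0.621 and 0.804) and without lateral S10 replicate 2 (0.0885 and 0.15). DN42876_c0_g5_i1 was also lost without lateral S10 replicate 1 (0.078), and DN48047_c0_g1_i1 without lateral S9 replicate 2 (0.113) or S10 replicate 3 (0.0653).

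**Figure D4:**
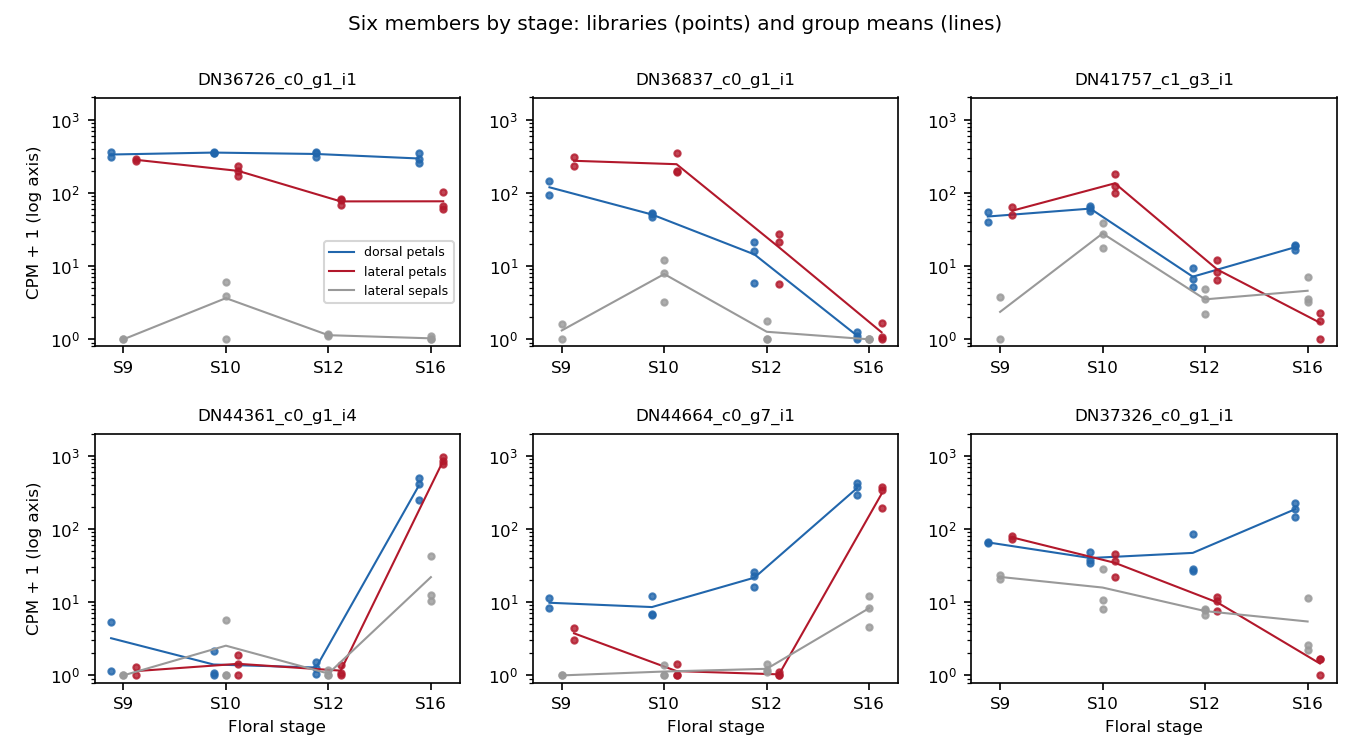
Level of 6 members at S9, S10, S12 and S16 in dorsal petals, lateral petals and lateral sepals; points are libraries, lines join group means, and the y axis is CPM plus 1 on a log scale. DN44361_c0_g1_i4 and DN44664_c0_g7_i1 are high at S16 in both petal types, DN36837_c0_g1_i1 is high at S9 and S10, and DN36726_c0_g1_i1, DN41757_c1_g3_i1 and DN37326_c0_g1_i1 part between the petal types.

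The other tested question was where dorsal and lateral petals differed within these shared features. The rule bounds the organ values to 3-fold, so few large differences could remain at a joint peak, and the counts are again a description. By organ value, lateral petals were higher in 45 members and dorsal petals in 28. The values lay within 1.5-fold in 22 members and within 2-fold in 47. Compared stage by stage rather than peak by peak, the group medians (CPM + 1) lay within 3-fold in 72 members at S9, 65 at S10, 64 at S12 and 67 at S16. The median fold between the types was 1.24, 1.35, 1.51 and 1.58. The added 1 draws values near 0 together, and at S9 both groups of 16 members were at or under 3 counts. These folds therefore depend on level and are not read as a growing difference, and no share over all features was taken.

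**Figure D5:**
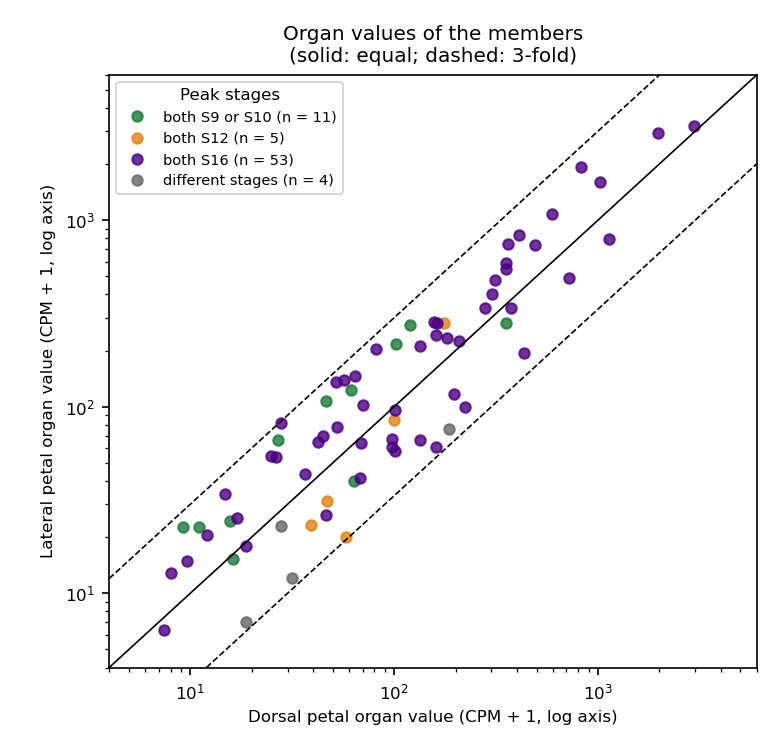
Dorsal against lateral organ values of the 73 members (CPM plus 1, log axes), coloured by peak stage; the solid line marks equal values and the dashed lines the 3-fold bound of the rule. Lateral values are the higher in 45 members, and the points fill the band up to the bound.

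At S9 edgeR called no member and none of the features tested (0% in each direction), while 8 members had an unadjusted p under 0.05 (5.22% of all features) and DESeq2 called 0 (0.521%). Without dorsal S9 replicate 1, 3 members were called (1.59% of all features), in a fit that takes the spread of the lone dorsal library from the other petal groups. At S10 dorsal petals had the higher level in 2 members and the lower in 1 (0.234% and 0.33% of all features), and with DESeq2 size factors in the same test the split was 1 and 2. Samples of the same replicate number deviated together at S10, and a fit blocked on that number called 10 members, 5 in each direction (1.8% of all features). The count was 1 without any single dorsal S10 library or without lateral S10 replicate 1, where the shares over all features are not given here. It was 9 without the libraries of few features (1.67%).

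DN44664_c0_g7_i1 had the largest dorsal excess at S10, at 11.1, 5.83 and 5.75 CPM in dorsal against 0, 0 and 0.433 in lateral petals, or 312 counts against 3, a ratio of 46.2 (15.6 to 225, adjusted p = 0.000524, edgeR). DN36726_c0_g1_i1 was higher in dorsal petals by 0.87 ± 0.18 on the log2 scale (353 ± 4.77 against 198 ± 32.3 CPM, SD, n = 3, adjusted p = 0.0237, edgeR). That call was lost without each library of the 2 groups except lateral replicate 2, with adjusted p from 0.0797 to 0.136. The same call was also lost in edgeR with DESeq2 size factors and in a fit of the 2 compared groups alone. DN35952_c0_g1_i1 was lower in dorsal petals, at 5.44, 5.39 and 5.82 against 31.9, 19.5 and 16.2 CPM (log2 difference -1.98 ± 0.38, adjusted p = 0.0154, edgeR). It was lost without any dorsal library or lateral replicate 1, with adjusted p from 0.0745 to 0.0986.

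At S12 the dorsal level was the higher in 8 members and the lower in 1 (0.921% and 0.811%), and 19 were called without the libraries of few features (5.53%). None of those petal libraries is of S12, so the S12 libraries compared were the same. DN44664_c0_g7_i1 read 24.7, 22.1 and 15 CPM in dorsal and 0, 0 and 0.0997 in lateral petals, 1121 counts against 1, a ratio of 672 (120 to 26584, adjusted p = 1.48e-06, edgeR). DN34327_c0_g1_i1 read 13.7, 19.2 and 18.9 CPM in dorsal and 0.769, 3.38 and 2.39 in lateral petals (log2 difference 2.98 ± 0.48, adjusted p = 0.00192, edgeR). The groups were apart in both, and at S16 the types overlapped in both. DN41330_c0_g1_i1 was the member called lower in dorsal petals, at 49.1, 86.2 and 63.7 against 113, 202 and 190 CPM (log2 difference -1.34 ± 0.26, adjusted p = 0.00746, edgeR; 0.0509 without dorsal replicate 3).

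At S16 the dorsal level was above the lateral in 7 members and below it in 3 (4.13% and 1.69%). Replicate numbers paired the samples here too, and the blocked fit called 17 members (9.54% of all features), 9 with the dorsal and 8 with the lateral level higher. DN37326_c0_g1_i1 had the largest difference, at 226, 143 and 185 CPM in dorsal against 0.661, 0.697 and 0 in lateral petals (log2 difference 8.45 ± 0.63, adjusted p = 5.16e-08, edgeR). DN44590_c0_g1_i3 followed, at 38.5, 25.5 and 30.7 against 0.189, 0.523 and 3.15 CPM (4.90 ± 0.70, adjusted p = 0.000129, edgeR). For both of these the dorsal peak was at S16 and the lateral level had been higher at an earlier stage.

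Of the members higher in lateral petals at S16, DN45604_c1_g1_i2 read 26.9, 27.5 and 26 CPM in dorsal and 81.2, 69.8 and 84.6 in lateral petals (log2 difference -1.50 ± 0.43, adjusted p = 0.0487, edgeR). DN39170_c0_g1_i1 read 80.8, 89.5 and 78.8 CPM in dorsal and 234, 202 and 204 in lateral petals (-1.32 ± 0.35, adjusted p = 0.0279, edgeR). The groups did not overlap in either. The call of DN45604_c1_g1_i2 was lost without each S16 petal library in turn, with adjusted p from 0.0526 to 0.17, and that of DN39170_c0_g1_i1 without each except lateral replicate 3, from 0.0583 to 0.101. Without dorsal S16 replicate 2, or without lateral S16 replicate 2, 6 members were called, all higher in dorsal petals. With all petal libraries, calls over all features also leaned to dorsal petals (4.13% against 1.69%). The shares over all features in the fits without 1 library are not given here.

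A single test over the 4 stages asked whether the dorsal-lateral difference itself changed. It called 12 of the 73 members (2.12% of all features), and 19 when blocked on replicate number (5.03%). The lowest p belonged to DN37326_c0_g1_i1 (adjusted p = 6.13e-06, edgeR), whose types overlapped at S10 and parted from S12. DN44664_c0_g7_i1 came next (adjusted p = 2.88e-05, edgeR), with lateral petals near 0 at S10 and S12 and overlapping types at S16. DN36726_c0_g1_i1 was called as well (adjusted p = 0.000786, edgeR), with dorsal and lateral means of 332 and 281 CPM at S9, 338 and 75.4 at S12, and 293 and 75.6 at S16. The 12 calls became 7 without dorsal S12 replicate 3, dorsal S16 replicate 1 or dorsal S16 replicate 2, and 6 without lateral S12 replicate 3. The shares over all features in these fits are not given here.

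The silencing libraries were not used by the rule. Of the 73 members, 63 passed the filter on low counts, which needs counts in these libraries. No member was called between ans-lmi1 and ans by edgeR, nor any of the 18757 features tested (0% in each direction), and DESeq2 called no member (0.6% of features). An unadjusted p under 0.05 was found for 10 members (7.32%), 9 of them higher in ans-lmi1. Without ans-lmi1 replicate 2, the library with the LMI2 label, 2 members were called, both higher in ans-lmi1 (0.442% of features), in a fit whose spread comes from the 2 ans libraries alone. DN36726_c0_g1_i1 read 45 and 44 CPM in ans and 71.7 and 39.1 in ans-lmi1, and these groups overlapped. DN47654_c0_g1_i2 read 313 and 136 CPM in ans and 450 and 605 in ans-lmi1, a log2 difference of 1.26 ± 0.41 that was not called (adjusted p = 0.652, edgeR).

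Set beside lateral sepals of S12, the silencing libraries had the higher summed level, while treatment, tissue and sampling cannot be told apart in that setting. The rule itself kept wild-type sepal values low, so part of this excess is fixed by the choice of members. The summed level was 4403 and 3995 CPM in ans and 5512 and 4440 in ans-lmi1, above the 1099 to 1190 CPM of lateral sepals at S12 and above the 3025 to 3939 CPM of lateral petals at S12. Without the 5 most abundant members, ans held 1839 and 1586 CPM and ans-lmi1 2417 and 1958. Lateral petals at S12 then held 1509, 1770 and 1644 CPM, which overlapped with ans but not with ans-lmi1. Lateral sepals at S12 then held 529 to 638 CPM, below all of these. DN36726_c0_g1_i1 read 0.102, 0.179 and 0.136 CPM in lateral sepals at S12, far below the 39.1 to 71.7 CPM of the silencing libraries. Without overlap of libraries, ans was above lateral sepals of S12 in 43 members and below in 4 (32.2% and 29% of features at 1 CPM or more). Against lateral sepals of S16, whose summed level was 2436, 2456 and 3622 CPM, it was above in 25 members and below in 23 (42.2% and 24.9%). Against lateral petals of S12, it was above in 27 members and below in 17 (19.6% and 41.7%). For these counts all 73 members were taken at any level, while the shares cover only features at 1 CPM or more. DN38206_c0_g1_i1, at 1748 and 1424 CPM in ans and 1642 and 1781 in ans-lmi1, was above all 3 lateral petal libraries of S12 in each silencing library.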

How the data were processed

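The authors deposited 1 table of estimated counts per library for 32115 features of a transcript assembly. TopHat2 and RSEM are named in the submitters' processing notes, without versions or roles. The assembly method, annotation and strand setting were not given in the sources used here. Features with 2 or more transcripts of 1 assembly gene can share reads, which estimated counts divide by a model. Between 93.2% and 99.2% of values per library were whole, and estimated counts were rounded for the tests. CPM used the deposited values.

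Tests were edgeR 4.0.16 (R 4.3.3) quasi-likelihood F tests with robust spread, TMM scaling and filterByExpr. One fit held the 22 wild-type petal libraries in 8 groups and another the 4 silencing libraries. Adjusted p-values (Benjamini-Hochberg) ran over all features of a fit (21834 and 18757), and calls needed adjusted p under 0.05. The standard error is the absolute log2 change divided by the square root of F. Bounds used 3 counts over a group, and intervals are exact at 95%; both cover counting error only. In 1 library 3 counts equal 0.136 to 0.714 CPM. The fits were tested on simulated data. Among petal groups, replicate numbers were taken to pair libraries where every same-numbered pair deviated together with r over 0.1. That held between the petal types at S10, with r from 0.16 to 0.32, and at S16, with r from 0.2 to 0.35. Between ans-lmi1 and ans r was 0.12, and these libraries were not taken as paired.

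Members named were the 2 of largest ratio, the 2 of highest level, the highest of each joint peak stage, the pair within 1 assembly gene, those at the thresholds and, per comparison, up to 2 called members without overlap at each end of the log2 change (lowest p for the test over stages). The 2 members that moved in opposite directions were named after their values were seen. Members, lists and tests were chosen with earlier results of these data known. Alternatives were DESeq2 1.42.0, its size factors, no filter, other sets of libraries, a replicate block, and leaving out libraries.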

Additional observations from a re-analysis of the deposited data

Results flagged for a closer look

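Among the members named, 6 had 1 leaf library far from the other 3 by Dixon's criterion, in 56 groups of 4 libraries checked over leaves and bracts, and chance alone flags about 1 in 20 groups. Leaf replicate 1 stood apart for DN36726_c0_g1_i1 (2.77 CPM), DN45604_c1_g1_i2 (4.53 CPM) and DN6373_c0_g1_i1 (0.185 CPM). Leaf replicate 4 stood apart for DN36837_c0_g1_i1 (7.14 CPM), DN42785_c0_g1_i1 (0.0915 CPM) and DN45919_c1_g4_i1 (201 CPM). In DN42785_c0_g1_i1 and DN6373_c0_g1_i1 the other 3 leaf libraries were at 0, where the criterion is met by any count in the fourth, so these are single low values to which the chance rate does not apply. The value of 201 CPM lies above the lateral sepals that set the ratio of DN45919_c1_g4_i1 but leaves the leaf median as it was.

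The dorsal-lateral difference changed over the stages in 12 members by the test of that change. Those among the named members were DN37326_c0_g1_i1 (adjusted p = 6.13e-06, edgeR), DN44664_c0_g7_i1 (2.88e-05), DN41757_c1_g3_i1 (0.000135), DN36726_c0_g1_i1 (0.000786), DN44590_c0_g1_i3 (0.00171), DN34327_c0_g1_i1 (0.00814) and DN41330_c0_g1_i1 (0.0298). The first of these differed most at S16, and DN44664_c0_g7_i1 at S12.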

How the results depend on the processing

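No named change reversed its direction in any alternative run, but the balance of some counts did. Between the types at S10, 2 members higher and 1 lower in dorsal petals became 1 and 2 with DESeq2 size factors, 3 and 6 with DESeq2, 4 and 5 without libraries of few features and 2 and 4 in a fit of the compared groups alone. In lateral petals from S10 to S12, 11 that rose and 13 that fell became 19 and 15 with DESeq2, 6 and 3 with all wild-type libraries, and 13 and 11 without lateral S10 replicate 2. Only the fit of all wild-type libraries lost DN34327_c0_g1_i1 at S12 (adjusted p = 0.28, edgeR) and DN44590_c0_g1_i3 at S16 (0.104). From S10 to S12 only it lost DN37869_c0_g1_i1 in dorsal (0.139) and DN36940_c0_g2_i1 in lateral petals (0.0606). It also lost DN36726_c0_g1_i1 and DN35952_c0_g1_i1 at S10, DN41330_c0_g1_i1 at S12, and DN45604_c1_g1_i2 and DN39170_c0_g1_i1 at S16. Between stages it lost DN47433_c1_g1_i2 and both lateral calls from S9 to S10.

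In the following, the number of all features called stands in parentheses after each count of members. DESeq2 called 9 (430) between the types at S10 and 15 (800) at S12, 2 (277) in dorsal and 6 (323) in lateral petals from S9 to S10, and 22 (1365) for the change of the difference over stages. With all wild-type libraries in 1 fit, calls between the types were 1 (17) at S10, 1 (96) at S12 and 2 (465) at S16. They were 6 (560) in dorsal petals from S10 to S12, 0 (2) and 9 (1277) in lateral petals from S9 to S10 and from S10 to S12, and 3 (162) for the change over stages. In a fit of the 2 compared groups alone they were 6 (208) at S10, 14 (1187) at S12 and 0 (28) in lateral petals from S9 to S10. Without petal libraries under 19000 features they were 9 (374) at S10, 19 (1242) at S12, 2 (27) and 5 (183) in dorsal and lateral petals from S9 to S10, and 30 (5616) in dorsal petals from S10 to S12. The cause was not tested.

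With the replicate number as a block, calls were 1 (20) at S9, 10 (392) at S10, 17 (2082) at S16 and 19 (1099) for the change over stages. The block moved no other count by over 1.5-fold and lost no named call. At S9 and S12 and between stages the samples share only a number.

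Leaving out 1 library at a time gave 0 to 3 calls between the types at S9, 1 to 3 at S10, 7 to 9 at S12 and 6 to 9 at S16. It gave 0 to 0, 12 to 18 and 61 to 66 calls in dorsal petals over the successive steps, 0 to 2, 20 to 24 and 58 to 63 in lateral petals, 6 to 13 for the change over stages, and 0 to 2 between ans-lmi1 and ans. These ranges, and the counts above from fits without 1 library, are of members alone unless a share is given. Calls over all features also differ between fits, so the ranges are not read as a trait of the members. The S12 to S16 counts of members stayed within 1.5-fold in all alternatives run.

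The list itself depended on the summary. With means in place of medians 59 of the 73 members were kept, with TMM-scaled CPM 67, and without all libraries under 19000 features 60, a setting that loses 3 sepal groups and the stamens of S9. In 1 library a level under 0.136 to 0.714 CPM, the worth of 3 counts, cannot be told from 0.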
